A study of Mus musculus with 6 samples.

Results

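The genes that encode collagen chains and the enzymes that modify collagen were examined in embryonic mouse intestine at E14.5, a stage at which villi have not yet formed. Members were the genes whose symbol is that of a collagen chain (Col with a type and a chain number), of a prolyl 4-hydroxylase α subunit (P4ha1 to P4ha3), of a lysyl hydroxylase (Plod1 to Plod3) or of a lysyl oxidase (Lox and its Loxl relatives), read from array rows that name a single gene. This gave 54 genes, of which 44 were collagen chains and 10 were enzymes, of 19938 genes measured. Loxl2 was named only on a row with another symbol and was not analysed here. The brightest row was used for each gene, and Col6a5, Col6a6 and Loxl4 had 2 rows each. For Col6a5 the 2 rows differed in sign (−0.07 for the row used and 0.08 for the other), and neither passed the test.

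Klf5-deleted embryos (genotype Klf5D/D) were set against control embryos (genotype Klf5wt/wtShhEGFP/Cre+), all of a mixed strain that is partly C57Bl/6. KLF5 is a zinc-finger transcription factor of epithelia, and the ShhEGFP/Cre allele expresses Cre from the Shh locus, a gene active in gut epithelium. The Cre allele is named in the control label and not in the label of the Klf5-deleted embryos. Each group held 3 arrays, and each array measured RNA pooled from 2 intestines, dissected about 1.5 cm anterior to the cecum. No separation of epithelium from the layers around it is described.

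Collagens are built from 3 polypeptide chains wound into a triple helix. In the endoplasmic reticulum, prolyl 4-hydroxylases stabilise the helix, and lysyl hydroxylases prepare the lysines that lysyl oxidases cross-link outside the cell. Fibrillar collagens form the cables of the gut wall, type IV collagen forms the sheet of basement membranes, type VI forms beaded filaments, and fibril-associated collagens decorate the cables. In the developing intestine most collagen is made by mesenchymal cells, and the epithelium rests on a basement membrane to which both layers contribute.

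The values are log2 signals normalised by the authors with RMA, on which a difference of 1 is a 2-fold change. Array medians lay between 7.81 and 7.89, and gene signals correlated at 0.996 to 0.998 within groups and 0.988 to 0.992 between groups, across genes, which are not independent replicates. Klf5 read 10.24, 10.49 and 10.34 in Klf5-deleted arrays, against 11.55, 11.74 and 11.77 in control arrays. Its signal fell by 1.33 (SE 0.08, n = 3 arrays per group, limma adjusted p = 9.62e-05). The epithelial genes Cdx2 and Vil1, which mark intestine, lay above the background level of the array on every array. This level was set at 6.88, the 95th percentile of 1027 olfactory receptor genes, and Col10a1 was the only member with a mean below it. The pools also differed in sex. Xist, expressed from the inactive X chromosome of females, read 5.89 to 6.47 in Klf5-deleted arrays and 11.93 to 12.61 in control arrays. The male share estimated from Y-linked genes was 95% to 102.9% in Klf5-deleted pools, and 0%, 47.1% and 40.8% in control replicates 1 to 3.

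Of the 54 members, 7 rose in the Klf5-deleted intestine and 0 fell, at a Benjamini-Hochberg adjusted p of 0.05 from limma over all 19938 genes. The genes that rose were the prolyl 4-hydroxylase gene P4ha3 and the chain genes Col12a1, Col18a1, Col26a1, Col5a2, Col11a1 and Col25a1. Over all genes 8.95% rose and 8.58% fell, so the share of members that rose (13%) was not far from that of any genes. At an unadjusted p of 0.05, 7 further members differed, and at an adjusted p of 0.1, 12 members passed. The groups did not overlap for 14 members that were higher and 2 that were lower in Klf5-deleted arrays, where 20.1% of all genes were higher and 15.9% lower without overlap. The median log2 fold change was 0.05 over the members and 0.02 over all genes. The 47 members that did not pass had log2 fold changes between −0.40 and 0.29, and for 43 of them the 95% interval stayed within a 1.5-fold change in either direction. Since segments were measured in bulk, more RNA per cell and more cells of the type that makes it cannot be told apart. For a single gene, the exact two-sided permutation test of 3 arrays against 3 cannot go below p = 0.1.

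**Figure D1:**
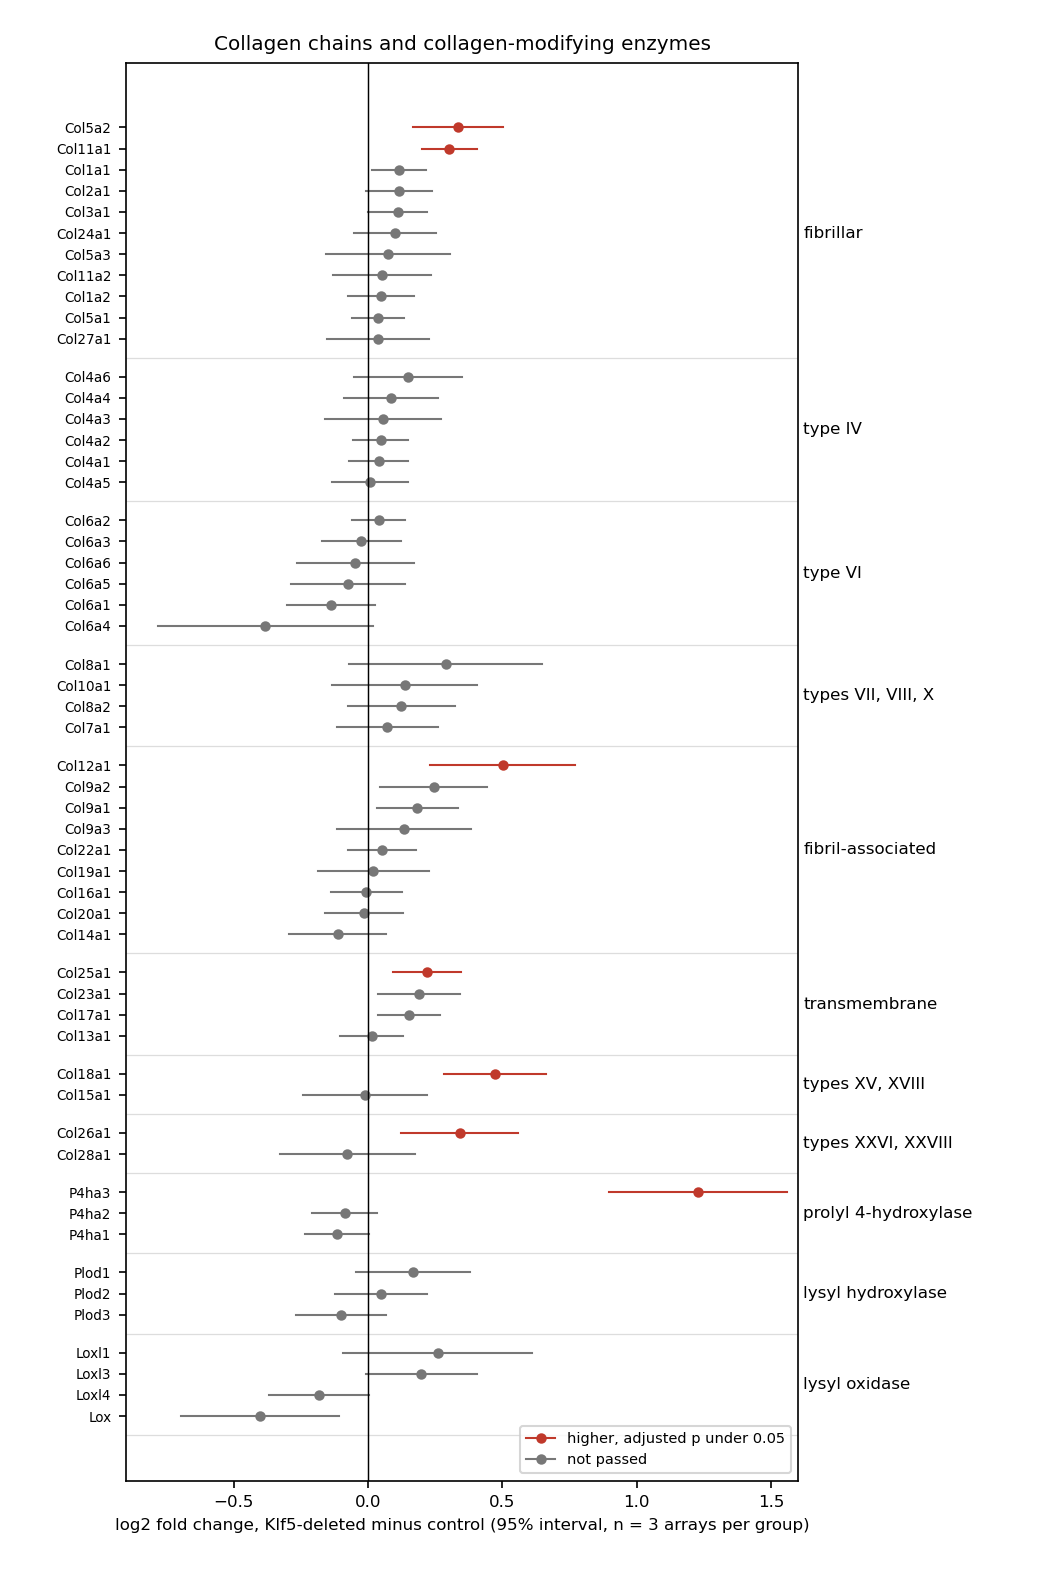
Log2 fold change of the 54 members (x axis, Klf5-deleted minus control), with one gene per line in groups by collagen class or enzyme family; points are limma estimates, lines are 95% intervals, n = 3 arrays per group, and red marks an adjusted p under 0.05. P4ha3 lies at 1.23, the other 6 red genes between 0.22 and 0.50, and the type IV genes between 0.01 and 0.15.

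P4ha3, one of the 3 genes for the catalytic α subunit of collagen prolyl 4-hydroxylase, read 10.55, 9.91 and 10.27 in Klf5-deleted arrays, against 9.03, 8.98 and 9.04 in control arrays. Every Klf5-deleted array was above every control array, and the Klf5-deleted arrays spread more widely (SD 0.32) than the controls (SD 0.03). The gene rose 2.34-fold (log2 fold change 1.23, SE 0.14, n = 3 arrays per group, limma adjusted p = 0.00142). It was the only member that rose at least 2-fold, among 18 genes of the array that did, and it ranked 7th among them. It kept its call in all 6 fits that left out an array, with estimates from 1.08 to 1.39. The control pools, at male shares of 0%, 47.1% and 40.8%, differed by less than 0.1 in P4ha3. No control pool was near the male share of the Klf5-deleted pools (95% to 102.9%). With the male share in the fit, P4ha3 did not pass (1.27, SE 0.39, limma adjusted p = 0.249). Sex and deletion cannot be fully told apart for this gene either.

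The other α subunit genes did not pass the test. P4ha1, which encodes the α subunit that most tissues use, read 10.78, 10.87 and 10.76 in Klf5-deleted arrays, against 10.89, 10.98 and 10.90 in control arrays. Its groups did not overlap and were lower in Klf5-deleted arrays, but the difference did not pass (−0.12, SE 0.05, adjusted p = 0.178). P4ha2 read 8.90, 8.84 and 8.82 in Klf5-deleted arrays and 8.86, 8.96 and 8.99 in control arrays, with overlapping groups (−0.09, SE 0.05, adjusted p = 0.33). The 95% intervals of the difference ran from −0.23 to 0.00 for P4ha1 and from −0.21 to 0.03 for P4ha2, against 0.90 to 1.56 for P4ha3. P4hb, which encodes the β subunit shared by the collagen prolyl 4-hydroxylases and was picked with its values known, was at −0.00 (SE 0.04).

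The promoters of the members that rose are shown as the stretch from 250 bases before to 50 bases after the annotated start, since KLF5 and its relatives bind GC-rich boxes. The sequences are from RefSeq (GRCm38.p6). The table held a promoter for 41 of the 54 members and for 4 of the 7 that rose. For Col18a1, with 2 starts, the most upstream start is shown. Capitals mark the boxes CCGCCC and CCACCC, read on both strands (GGGCGG and GGGTGG on the other strand), and neighbouring boxes can overlap.
P4ha3, chr7:100285270-100285569 (+ strand): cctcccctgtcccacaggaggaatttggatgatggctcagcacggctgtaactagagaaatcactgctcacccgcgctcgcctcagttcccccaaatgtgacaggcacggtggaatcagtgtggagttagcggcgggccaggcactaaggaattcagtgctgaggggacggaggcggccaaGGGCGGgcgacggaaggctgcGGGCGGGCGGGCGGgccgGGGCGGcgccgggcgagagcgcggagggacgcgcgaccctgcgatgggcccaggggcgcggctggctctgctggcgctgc
Col18a1, chr10:77166481-77166780 (- strand): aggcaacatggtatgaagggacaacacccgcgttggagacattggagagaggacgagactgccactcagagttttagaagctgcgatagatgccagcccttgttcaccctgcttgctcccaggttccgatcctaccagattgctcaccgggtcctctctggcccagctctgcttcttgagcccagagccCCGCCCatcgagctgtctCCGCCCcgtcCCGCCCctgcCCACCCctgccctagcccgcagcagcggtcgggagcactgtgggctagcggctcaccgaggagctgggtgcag
Col11a1, chr3:114030290-114030589 (+ strand): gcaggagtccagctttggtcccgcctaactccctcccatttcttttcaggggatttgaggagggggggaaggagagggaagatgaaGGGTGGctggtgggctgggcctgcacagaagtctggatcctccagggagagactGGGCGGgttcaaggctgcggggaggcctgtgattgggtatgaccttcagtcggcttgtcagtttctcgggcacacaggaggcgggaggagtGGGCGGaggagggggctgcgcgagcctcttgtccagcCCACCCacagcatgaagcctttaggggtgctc
Col25a1, chr3:130180595-130180894 (+ strand): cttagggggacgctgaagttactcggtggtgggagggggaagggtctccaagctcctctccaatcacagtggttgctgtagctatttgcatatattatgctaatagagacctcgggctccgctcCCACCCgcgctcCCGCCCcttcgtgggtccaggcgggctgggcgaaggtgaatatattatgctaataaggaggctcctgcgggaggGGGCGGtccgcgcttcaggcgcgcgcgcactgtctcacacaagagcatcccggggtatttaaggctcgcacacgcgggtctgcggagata

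In the P4ha3 promoter CCGCCC matched 5 times on the other strand, all before the annotated start and 3 of them overlapping, and CCACCC did not match. Col18a1 had 3 matches of CCGCCC and 1 of CCACCC, Col11a1 had 2 and 2, and Col25a1 had 2 and 1. CCGCCC was found in all 4 promoters of members that rose and in 23 of the 37 promoters of members that did not pass (62.2%). It was also found in 35.9% of all 27025 RefSeq promoters, 1 per gene symbol and not limited to the genes measured here. CCACCC was found in 3 of the 4, in 19 of the 37 (51.4%) and in 30.8% of all promoters. The median GC content was 60.3% in the promoters of members and 52.7% in all promoters. These matches describe the letters of the window and nothing about binding.

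Among the 11 fibrillar chain genes, 2 rose and 0 fell, where 8.95% of all genes rose. All 11 estimates were above 0, the lowest at 0.04, with a median log2 fold change of 0.10. Of all 19938 genes, 11507 were above 0. Col5a2, a chain of type V collagen, which is built into type I fibrils and limits their width, read 9.99, 9.77 and 9.75 in Klf5-deleted arrays, against 9.47, 9.54 and 9.49 in control arrays. The groups did not overlap, and Klf5-deleted replicate 1 stood highest. The gene rose 1.26-fold (0.34 on the log2 scale, SE 0.07, limma adjusted p = 0.0184), but did not pass once control replicate 1 was omitted (0.32, adjusted p = 0.0602), nor once control replicate 3 was (0.33, adjusted p = 0.0636). Col11a1, a chain of type XI collagen, the counterpart of type V in cartilage fibrils, read 8.71, 8.71 and 8.73 in Klf5-deleted arrays, against 8.45, 8.37 and 8.41 in control arrays. It rose 1.23-fold (0.30, SE 0.04, adjusted p = 0.00372) and passed in all 6 fits that left out an array.

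Col5a1, the other main type V chain, read 9.70, 9.68 and 9.69 in Klf5-deleted arrays, against 9.67, 9.65 and 9.64 in control arrays, groups that did not overlap but were close (0.04, SE 0.04, 95% interval −0.06 to 0.13, adjusted p = 0.618). Col5a3, a rarer type V chain, was at 0.07 (SE 0.10, adjusted p = 0.688). Neither passed. Col2a1, the main cartilage chain, picked with its values known, read 8.69, 8.78 and 8.82 in Klf5-deleted arrays and 8.69, 8.61 and 8.64 in control arrays (0.11, SE 0.05, adjusted p = 0.191).

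The main fibril-forming chains did not pass. Col1a1, the α1 chain of type I collagen, read 12.27, 12.20 and 12.22 in Klf5-deleted arrays, against 12.13, 12.11 and 12.10 in control arrays. These groups did not overlap, yet the difference was small (0.12, SE 0.04, 95% interval 0.02 to 0.22, adjusted p = 0.111), and it passed with an intensity trend and robust variance (adjusted p = 0.0303) and with the lowest 50% of genes left out (adjusted p = 0.0436). Col1a2, the partner chain in the same trimer, read 11.56, 11.44 and 11.52 in Klf5-deleted arrays and 11.51, 11.45 and 11.41 in control arrays, with overlapping groups (0.05, SE 0.05, 95% interval −0.07 to 0.17, adjusted p = 0.612). Col3a1, which forms type III collagen by itself, read 11.50, 11.47 and 11.41 in Klf5-deleted arrays and 11.38, 11.32 and 11.35 in control arrays (0.11, SE 0.05, 95% interval 0.00 to 0.22, adjusted p = 0.158). As folds, the upper ends of the intervals were 1.16 for Col1a1, 1.13 for Col1a2 and 1.17 for Col3a1. Col3a1 and Col5a2 are neighbours on chromosome 1 with no protein-coding gene between them in the RefSeq annotation, and their log2 fold changes were 0.11 and 0.34.

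**Figure D2:**
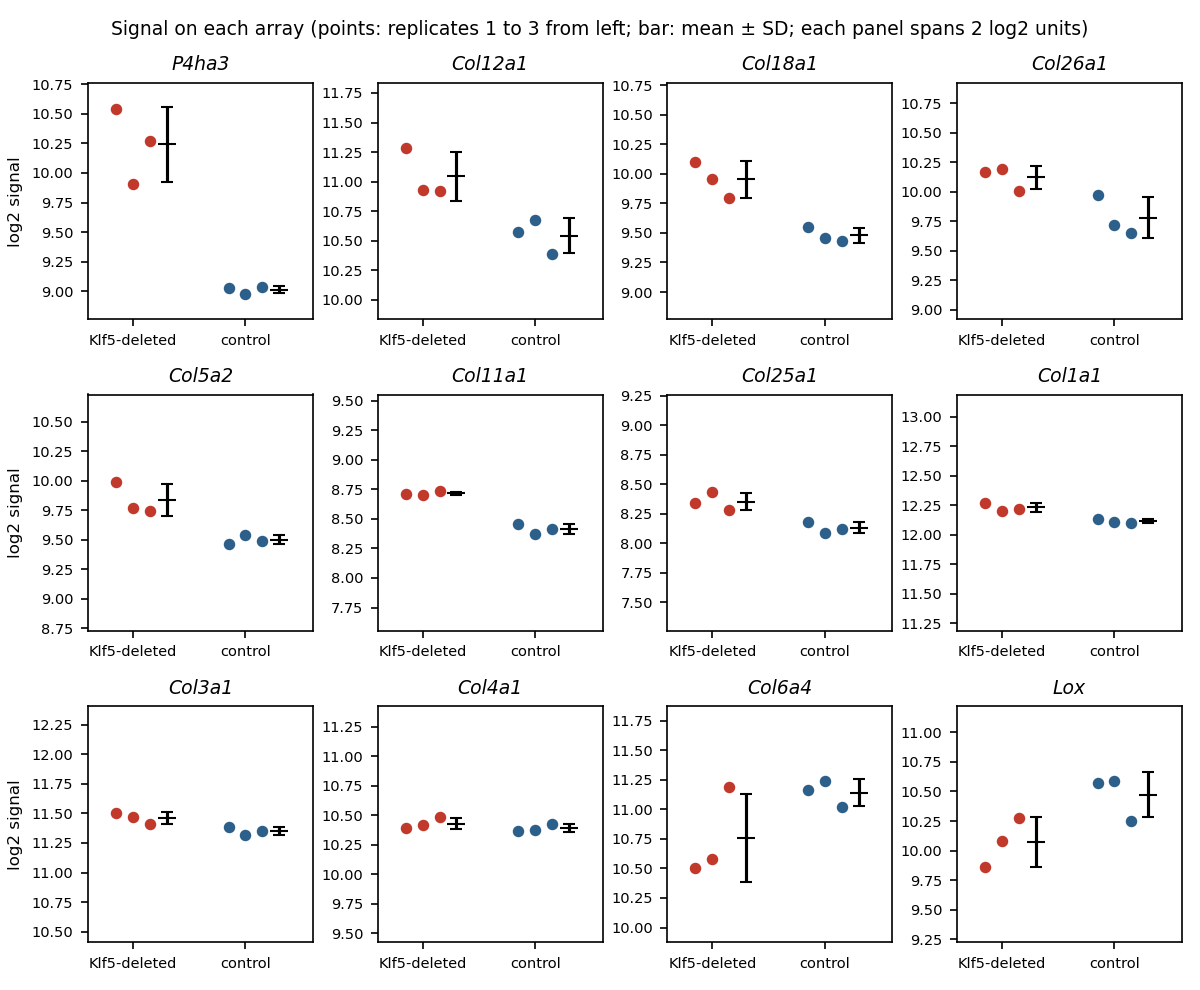
Log2 signal (y axis) of 12 members on each of the 3 Klf5-deleted arrays (red, left) and the 3 control arrays (blue, right); points are replicates 1 to 3 from left to right, black bars are means ± SD, and each panel spans 2 log2 units. P4ha3 separates the groups by 1.23, Col1a1, Col3a1 and Col4a1 by 0.12 or less, and in the Col6a4 and Lox panels Klf5-deleted replicate 3 lies within the control range.

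Of the 9 genes of fibril-associated collagens, 1 rose (11.1%) and 0 fell, where 8.95% of all genes rose. Col12a1, whose product sits on the surface of type I fibrils in tissues under tension, read 11.28, 10.93 and 10.92 in Klf5-deleted arrays, against 10.57, 10.67 and 10.38 in control arrays. The groups did not overlap, with Klf5-deleted replicate 1 highest. It rose 1.42-fold (0.50 on the log2 scale, SE 0.12, adjusted p = 0.0237), but did not pass with control replicate 1 omitted (0.52, adjusted p = 0.0607) or with control replicate 3 omitted (0.42, adjusted p = 0.0804). Col14a1, the closest relative of Col12a1 on such fibrils, picked with its values known, read 11.76, 11.99 and 11.92 in Klf5-deleted arrays and 12.07, 12.05 and 11.88 in control arrays (−0.11, SE 0.08, adjusted p = 0.402). The 3 chains of type IX collagen, which coats cartilage fibrils, were also picked with their values known. Col9a1 was at 0.18 (SE 0.06, adjusted p = 0.0951), Col9a2 at 0.24 (SE 0.08, adjusted p = 0.0946) and Col9a3 at 0.13 (SE 0.11, adjusted p = 0.473). None of the 3 passed, and Col9a1 passed when arrays were weighted (adjusted p = 0.0349) and, at an adjusted p that rounds to 0.05, when control replicate 1 was omitted (0.24).

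Several chains named above are known from cartilage, and the cartilage markers were read beside them. Of 10 cartilage markers, 1 rose and 1 fell (10% each, against 8.95% and 8.58% of all genes). Acan, Matn1, Matn3 and Ucma were below the background level of the array. The gene that fell was Sox9, which gut epithelium also expresses, with 10.51, 10.71 and 10.75 in Klf5-deleted arrays, against 11.35, 11.41 and 11.50 in control arrays (−0.76, SE 0.07, adjusted p = 0.000619). The gene that rose was Hapln1, a link protein gene of cartilage matrix (0.63, SE 0.11, adjusted p = 0.00764). The summed linear signal of all 10 markers was 2905 to 3283 in Klf5-deleted arrays, against 3974 to 4271 in control arrays. Without Sox9, a split made after its values were seen, the order was the opposite, with 1443 to 1564 in Klf5-deleted arrays and 1268 to 1373 in control arrays. That sum still held Hapln1, the only marker that rose. Of the 10 markers, 3 had estimates above 0 and 7 below, with a median of −0.03. The part of cartilage cells in the results was not tested.

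Basement membrane collagens divided by type. Col18a1, which encodes a heparan sulfate-bearing collagen of basement membranes and the source of endostatin, read 10.10, 9.96 and 9.80 in Klf5-deleted arrays, against 9.55, 9.45 and 9.43 in control arrays. All Klf5-deleted arrays were above all controls, and the gene rose 1.39-fold (0.47 on the log2 scale, SE 0.08, adjusted p = 0.00763), passing in all 6 fits that left out an array. Its relative Col15a1, picked with its values known, read 9.95, 9.60 and 9.72 in Klf5-deleted arrays and 9.80, 9.63 and 9.87 in control arrays, without a difference beyond the spread (−0.01, SE 0.10, adjusted p = 0.959).

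Of the 6 type IV chain genes, none passed (0 by limma's test), and 0 had an unadjusted p under 0.05. Col4a1 and Col4a2, whose chains form the common network of all basement membranes, were at 0.04 (SE 0.05, 95% interval −0.07 to 0.15) and 0.05 (SE 0.04, 95% interval −0.06 to 0.15). Col4a1 read 10.39, 10.41 and 10.48 in Klf5-deleted arrays and 10.37, 10.37 and 10.43 in control arrays, with overlapping groups. Col4a2 read 10.15 on each Klf5-deleted array, and 10.08, 10.08 and 10.16 in control arrays. As folds, the upper ends of both intervals were 1.11. The chains of the networks found in kidney and some epithelia were at 0.06 for Col4a3 (SE 0.09), 0.09 for Col4a4 (SE 0.07), 0.01 for Col4a5 (SE 0.06) and 0.15 for Col4a6 (SE 0.09), with adjusted p from 0.304 to 0.961. Col4a5 and Col4a6 are the 2 members on the X chromosome, and with quantile normalization or median centring the Col4a5 estimate was −0.01.

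Of the 6 type VI chain genes, 0 passed limma's test and 0 had an unadjusted p under 0.05. Col6a1, Col6a2 and Col6a3, which make up the usual type VI trimer, were at −0.14 (SE 0.07, adjusted p = 0.245), 0.04 (SE 0.04, adjusted p = 0.599) and −0.02 (SE 0.06, adjusted p = 0.851). Col6a2 read 11.71, 11.70 and 11.75 in Klf5-deleted arrays, against 11.66, 11.70 and 11.68 in control arrays, without overlap but by less than 0.1. Col6a4, one of the chains that can replace the Col6a3 product, read 10.51, 10.58 and 11.19 in Klf5-deleted arrays, against 11.16, 11.24 and 11.02 in control arrays. Klf5-deleted replicates 1 and 2 lay below all controls, and replicate 3 lay among them. The difference did not pass (−0.38, SE 0.17, adjusted p = 0.182), but without Klf5-deleted replicate 3 it did (−0.60, adjusted p = 0.00624). Col6a5 and Col6a6, the other replacement chains and neighbours of Col6a4 on chromosome 9, were at −0.07 (SE 0.09) and −0.05 (SE 0.09).

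The remaining classes held further small rises. Col25a1, a transmembrane collagen that motor axons need to enter muscle in the mouse, read 8.34, 8.43 and 8.28 in Klf5-deleted arrays, against 8.18, 8.09 and 8.12 in control arrays. It rose 1.17-fold (0.22 on the log2 scale, SE 0.05, adjusted p = 0.0307), without overlap between groups. It did not pass in 4 of the 6 fits that omitted an array. The estimates were 0.23 and 0.18 when Klf5-deleted replicates 1 and 2 were omitted in turn (adjusted p of 0.0628 and 0.0811), and 0.20 and 0.22 when control replicates 2 and 3 were (0.108 and 0.091). Nor did it pass after median centring (0.20, adjusted p = 0.0656). Col26a1, a secreted collagen described in mouse testis and ovary, read 10.16, 10.19 and 10.01 in Klf5-deleted arrays, against 9.97, 9.72 and 9.65 in control arrays. The groups came within 0.1 of each other, between Klf5-deleted replicate 3 and control replicate 1. Col26a1 rose 1.27-fold (0.34, SE 0.09, adjusted p = 0.0433). Of the fits that omitted an array, only the one omitting control replicate 1 still called it. Omitting Klf5-deleted replicates 1, 2 and 3 in turn gave 0.32, 0.31 and 0.40 (adjusted p of 0.0982, 0.117 and 0.0527), and omitting control replicates 2 and 3 gave 0.31 and 0.28 (0.138 and 0.132). After quantile normalization the estimate was 0.34 with an adjusted p of 0.0516.

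Other transmembrane and network collagens were picked with their values known. Col17a1, the collagen of hemidesmosomes, read 7.80, 7.90 and 7.78 in Klf5-deleted arrays, against 7.66, 7.65 and 7.71 in control arrays, without overlap but not past the threshold (0.15, SE 0.05, adjusted p = 0.077). Col23a1, also transmembrane, was at 0.19 (SE 0.06, adjusted p = 0.0902) without overlap, and passed with array weights (adjusted p = 0.041) and with the lowest 50% of genes left out (adjusted p = 0.0443). Col7a1, which makes the anchoring fibrils under stratified epithelia, was at 0.07 (SE 0.08, adjusted p = 0.623). Col8a1, a short network collagen of vessel walls, read 8.18, 7.60 and 7.65 in Klf5-deleted arrays and 7.67, 7.47 and 7.41 in control arrays, so that Klf5-deleted replicate 1 carried most of the difference (0.29, SE 0.15, adjusted p = 0.26, and 0.10 without that array). The 10 members not named individually lay between −0.08 and 0.12, with adjusted p of at least 0.368.

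Of the 10 enzyme genes, P4ha3 alone passed. Lox, the lysyl oxidase that starts the cross-linking of collagen and elastin, read 9.86, 10.08 and 10.28 in Klf5-deleted arrays, against 10.58, 10.59 and 10.25 in control arrays. The groups overlapped through replicate 3 of each. The difference was −0.40 (SE 0.13, 95% interval −0.70 to −0.11, adjusted p = 0.0704). It passed without Klf5-deleted replicate 3 (−0.50, adjusted p = 0.0469), without control replicate 3 (−0.51, adjusted p = 0.0447), with median centring (−0.42, adjusted p = 0.0292) and with the lowest 50% of genes left out (adjusted p = 0.0386). Among its relatives, Loxl1, which acts mainly on elastin, read 10.19, 9.66 and 9.67 in Klf5-deleted arrays and 9.71, 9.61 and 9.41 in control arrays (0.26, SE 0.15, adjusted p = 0.308). Without Klf5-deleted replicate 1 the Loxl1 estimate was 0.08. Loxl3 was at 0.20 (SE 0.09, adjusted p = 0.178) and Loxl4 at −0.18 (SE 0.08, adjusted p = 0.169). Loxl4 read 8.22 on each Klf5-deleted array, below the 8.59, 8.29 and 8.33 of the control arrays.

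The lysyl hydroxylase genes did not pass. Plod1, which acts on lysines of the helix, read 11.11, 11.09 and 10.96 in Klf5-deleted arrays and 11.02, 10.95 and 10.69 in control arrays (0.17, SE 0.09, adjusted p = 0.275). Plod2, which acts on the ends of the chains and so sets the kind of cross-link, was at 0.05 (SE 0.07, 95% interval −0.12 to 0.22). Plod3, which also adds sugars to hydroxylysine, was at −0.10 (SE 0.07, adjusted p = 0.417). The groups overlapped for all 3 Plod genes.

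**Figure D3:**
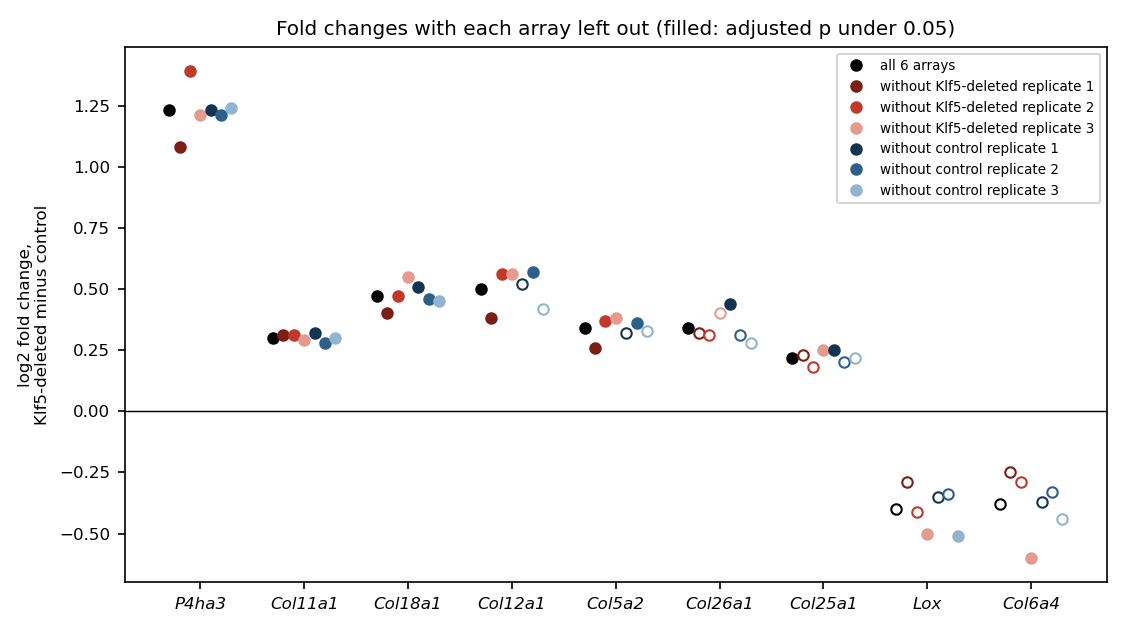
Log2 fold change (y axis, Klf5-deleted minus control) of the 7 members that rose and of Lox and Col6a4, with all 6 arrays (black) and with each array left out (colours as in the legend); filled points had an adjusted p under 0.05. P4ha3, Col11a1 and Col18a1 are filled throughout, Col26a1 is filled without 1 array only, and Col6a4 is filled only without Klf5-deleted replicate 3.

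Most of the calls were lost in some fit that left out an array. P4ha3, Col11a1 and Col18a1 were the members that passed in all 6 fits leaving out an array. Of the 6 chain genes that rose, 2 did so without control replicate 3. When the fit held the pools' male share as a term, 0 of the 54 members passed limma's adjusted p of 0.05, 14 had an unadjusted p under 0.05, and 83 of all genes passed. The SE of the members was then 2.5 times as large in the median. All 7 members that had risen stayed above 0, with estimates of 1.27 for P4ha3 (SE 0.39, adjusted p = 0.249), 0.73 for Col26a1 (SE 0.19), 0.57 for Col18a1 (SE 0.22), 0.47 for Col12a1 (SE 0.32), 0.41 for Col11a1 (SE 0.11), 0.32 for Col25a1 (SE 0.14) and 0.21 for Col5a2 (SE 0.19). Of all 54 members, 44 kept their sign. Every Klf5-deleted pool lay above every control pool on the male share scale, so sex and deletion cannot be fully told apart in this design.

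Genes that act on collagen outside the members were counted by lists, as were 17 genes of TGF-β signalling. The lists were set up with earlier results of these data known. Of the 77 genes measured in these lists, 22 rose and 4 fell, where 8.95% of all genes rose and 8.58% fell. In all 6 fits leaving out an array, 8 of the 22 rose and 1 of the 4 fell. With all 6 arrays, the TGF-β list held 8 of the 22 that rose. Of 19 genes for collagen folding, hydroxylation and secretion, 7 rose (36.8%) and 0 fell, with a median of 0.11. With an array left out, 1 to 5 of them rose, and 1 did without Klf5-deleted replicate 3, control replicate 2 or control replicate 3. The prolyl 3-hydroxylase gene P3h2 read 11.07, 11.06 and 11.19 in Klf5-deleted arrays, against 10.76, 10.76 and 10.86 in control arrays (0.32, SE 0.06, adjusted p = 0.00885). Its relative P3h3 was at 0.22 (SE 0.05, adjusted p = 0.032) and passed in 1 of the 6 fits, that without Klf5-deleted replicate 2. Fkbp14, a proline isomerase of the endoplasmic reticulum, rose by 0.24 (SE 0.05, adjusted p = 0.0164) but not without Klf5-deleted replicate 3 (adjusted p = 0.0603), control replicate 2 (adjusted p = 0.0554) or control replicate 3 (adjusted p = 0.0528). Sec24d, a coat protein gene for the vesicles that export procollagen, rose by 0.22 (SE 0.05, adjusted p = 0.0232) and passed in 2 of the 6 fits, with adjusted p from 0.0644 to 0.0878 when Klf5-deleted replicate 1 or 3, or control replicate 2 or 3, was omitted.

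Of 9 genes for cutting procollagen ends, 3 rose (33.3%) and 2 fell (22.2%), against 8.95% and 8.58% of all genes. With an array left out 1 to 3 rose and 0 to 2 fell. Tll1, a tolloid-like protease gene, read 8.45, 8.40 and 8.12 in Klf5-deleted arrays, against 7.63, 7.46 and 7.68 in control arrays, and rose 1.67-fold (0.74, SE 0.10, adjusted p = 0.00284). Mep1a, which encodes a brush border protease that can also cut procollagen, read 7.81, 9.55 and 9.02 in Klf5-deleted arrays, against 10.46, 10.47 and 10.59 in control arrays. It fell by 1.71 (SE 0.38, adjusted p = 0.0212) and did not pass when any control array was omitted, with adjusted p from 0.0593 to 0.0751. Adamts3 was at 0.26 (SE 0.07, adjusted p = 0.0335) and Mep1b at −0.23 (SE 0.06, adjusted p = 0.0337). Adamts3 passed in 2 of the 6 fits and Mep1b in 1, and Mep1b lay below the background level of the array.

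Of 12 genes of collagen breakdown and its inhibitors, 3 rose (25%, against 8.95% of all genes) and 0 fell. Without Klf5-deleted replicate 2, 6 were higher, and without control replicate 2, 2 were. Mmp16, a membrane-bound metalloprotease gene, read 10.51, 10.22 and 10.09 in Klf5-deleted arrays, against 9.69, 9.58 and 9.50 in control arrays (0.68, SE 0.11, adjusted p = 0.0054). Reck, which encodes a membrane-anchored inhibitor of such proteases, rose by 0.40 (SE 0.06, adjusted p = 0.0059), and Mmp14 rose by 0.23 (SE 0.05, adjusted p = 0.0137) but not without control replicate 2 (0.22, adjusted p = 0.0571). Timp2 was at 0.18 (SE 0.05, adjusted p = 0.0593). Of 10 collagen receptor genes, 1 rose (10%) and 2 fell (20%), against 8.95% and 8.58% of all genes. With an array left out 1 rose and 1 to 3 fell. Mrc2, the receptor that takes up cut collagen, rose by 0.43 (SE 0.07, adjusted p = 0.00805). Cd44, a receptor for hyaluronan that can bind collagen, fell by 0.57 (SE 0.09, adjusted p = 0.0054). Itga2, the α2 integrin gene, was at −0.30 (SE 0.08, adjusted p = 0.0431) and passed in 1 of the 6 fits, that without Klf5-deleted replicate 3, and Ddr1 was at 0.14 (SE 0.04, adjusted p = 0.0559).

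Of 17 genes of TGF-β signalling, a pathway that induces collagen genes in fibroblasts, 8 rose and 0 fell, with a median of 0.19. The share that rose was 47.1%, against 8.95% of all genes. With an array left out, 4 to 8 of them rose, the fewest without control replicate 2 or 3. Ltbp1, which stores latent TGF-β in the matrix, averaged 11.01 ± 0.01 in Klf5-deleted arrays and 10.56 ± 0.05 in control arrays (SD, n = 3 each), without overlap (0.45, SE 0.04, adjusted p = 0.000674). The ligand gene Tgfb2 rose by 0.58 (SE 0.08, adjusted p = 0.00317) and the receptor gene Tgfbr1 by 0.26 (SE 0.04, adjusted p = 0.00751). Tgfbi, a matrix protein gene that TGF-β induces, rose by 0.20 (SE 0.04, adjusted p = 0.0146) but not without Klf5-deleted replicate 3 (adjusted p = 0.0529) or control replicate 2 (adjusted p = 0.0598). Of 10 collagen-binding proteoglycan genes, 0 passed limma's test, and Aspn (−0.41), Ogn (−0.26) and Fmod (0.61) had an unadjusted p under 0.05. Fmod, which encodes a proteoglycan of type I fibrils, read 10.24, 9.35 and 9.32 in Klf5-deleted arrays and 9.24, 8.98 and 8.85 in control arrays. Klf5-deleted replicate 1 stood apart, and estimates of Fmod with an array left out ran from 0.31 to 0.77. Prelp was at −0.14 (SE 0.08). With median centring of the arrays, 11 of the 77 genes rose and 6 fell, and over all genes 1216 rose and 1767 fell, against 1785 and 1711 without it.

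**Figure D4:**
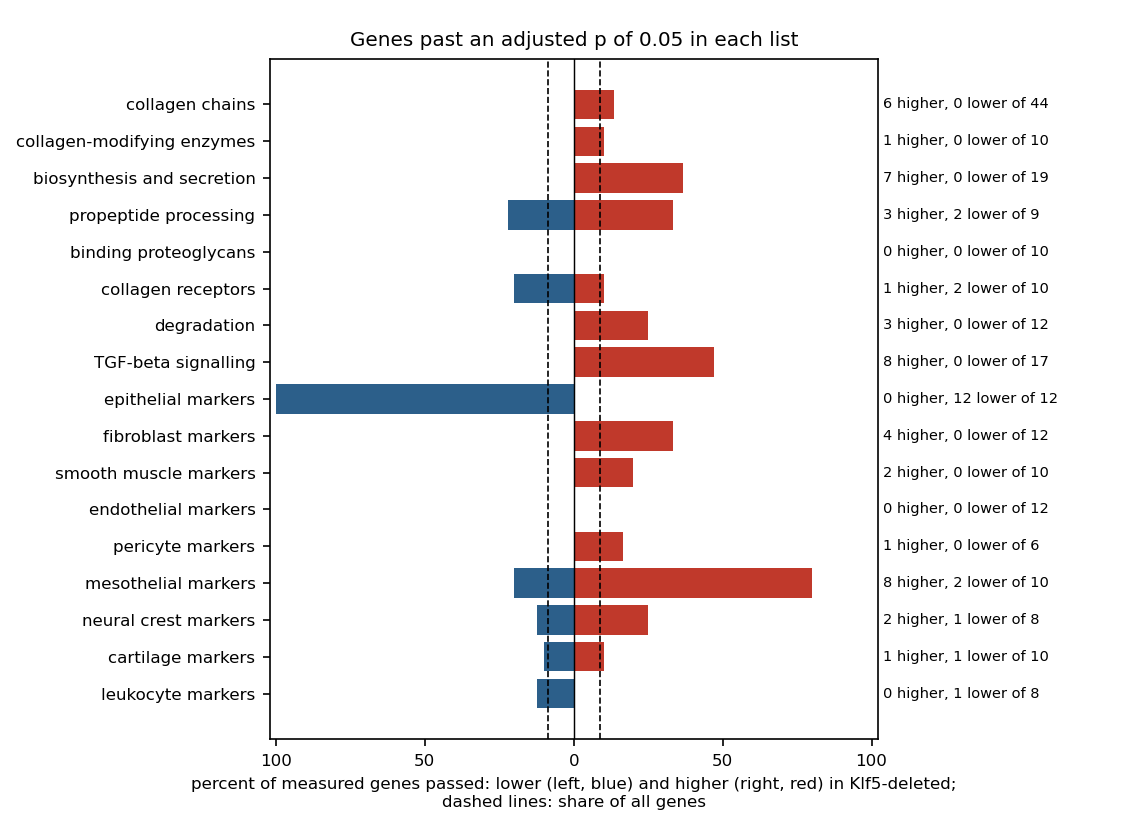
Percent of measured genes past an adjusted p of 0.05 in each list, higher in Klf5-deleted arrays to the right (red) and lower to the left (blue); numbers give the counts, and dashed lines give the share of all genes (8.95% higher and 8.58% lower). Collagen chains and enzymes lie near the dashed line at 13.6% and 10% higher, all 12 epithelial markers are lower, and 8 of 10 mesothelial markers are higher.

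Markers of the cell types in the segment were read beside these genes, and their part in the results was not tested. Over all genes 8.95% rose and 8.58% fell. All 12 epithelial markers fell, with a summed linear signal of 19145 to 22352 in Klf5-deleted arrays and 37353 to 38215 in control arrays. Of 12 fibroblast markers, 4 rose (Twist2 by 0.44 and Pdgfra by 0.26 among them), 8 did not pass and 0 fell. With an array left out 3 to 4 rose, and without Klf5-deleted replicate 2 Thy1 fell (−0.31, limma adjusted p = 0.0496). The fibroblast sum was 38311 to 41951 in Klf5-deleted arrays and 33500 to 36214 in control arrays, 1.14 times as large in the mean. Of 10 mesothelial markers, 8 rose and 2 fell (Krt19 and Msln). Without control replicate 2, 3 of them rose, and without control replicate 3, 4 did, while 2 fell in both fits. Their sum was 15209 to 17924 in Klf5-deleted arrays and 12737 to 13869 in control arrays. That sum includes Krt19 (−1.52, SE 0.08), which was also counted among the epithelial markers. A sum without Krt19 was not made. Bnc1, a mesothelial transcription factor gene, rose by 1.05 (SE 0.17) and passed in all 6 fits that left out an array. None of the epithelial, fibroblast or mesothelial markers was below the background level. Of 6 pericyte markers 1 rose, with sums of 8281 to 9182 in Klf5-deleted arrays and 7210 to 7564 in control arrays, and Higd1b was below background. Sums overlapped between groups for 4 further lists. The smooth muscle sum was 48756 to 51713 in Klf5-deleted arrays and 47712 to 50720 in control arrays, and 2 of 10 markers rose. The endothelial sum was 15596 to 19399 in Klf5-deleted arrays and 16054 to 16921 in control arrays, and 0 of 12 markers passed limma's test. The neural crest sum was 11337 to 13138 in Klf5-deleted arrays and 11072 to 12080 in control arrays. Of 8 neural crest markers, 2 were higher (Foxd3, 0.34, and Sox10, 0.39) and 1 was lower (Erbb3, −0.56). S100b was below background. Whether the neural crest sums also overlap without Erbb3 was not examined. The leukocyte sum was 2677 to 3252 in Klf5-deleted arrays and 3103 to 3425 in control arrays, and 1 of 8 markers fell. Without control replicate 2, 1 smooth muscle, 0 pericyte and 0 leukocyte markers passed limma's test. The leukocyte count was also 0 without control replicate 1. The smooth muscle count was also 1 higher without Klf5-deleted replicate 2 or control replicate 1, and 1 higher and 2 lower without Klf5-deleted replicate 3. The cartilage count was 2 higher without control replicate 1.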

How the data were processed

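RNA of the 6 pools was hybridised to the Affymetrix Mouse Gene 1.0 ST array, which holds several probes across each transcript. Per the submitters' processing notes, the authors made the deposited log2 values by RMA with Affymetrix Expression Console 1.1. RMA equalises the distributions of the arrays, and so hides a change shared by most genes. For the array annotation, the genome build was not given in the sources used here. Arrays have no read depth, and their number limits the precision.

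Of 35557 rows, 21789 carried 1 gene symbol, 1621 several and 12147 none. Symbols were updated by gene ID to RefSeq (GRCm38.p6), with a match for 21698 of those rows, and the brightest row of each of 19938 genes was kept, without a filter on level. Groups and replicate numbers came from the sample titles. Fold changes are Klf5-deleted minus control and come from lmFit and eBayes of limma 3.58.1 (R 4.3.3), with p-values adjusted by Benjamini-Hochberg across the genes. Same-numbered arrays did not deviate together (correlations of −0.14, −0.27 and −0.03), so the numbers were not taken to pair samples. No label says that the pools came from separate litters, so the p-values measure only how these pools vary, which may be technical. The male share is the mean linear signal of Eif2s3y, Kdm5d and Uty, scaled so that the lowest array is 0% and the Klf5-deleted arrays average 100%.

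Named are Klf5, every member that passed, every member of collagen types I, III, IV, V and VI, every enzyme, and up to 4 genes of each other list with the smallest p (of marker lists, fewer are printed). Any other gene named was chosen after its values were seen. The members, lists and alternatives were chosen with earlier results of these data known. The alternatives were quantile normalization, median centring, leaving out the lowest 25% or 50% of genes, an intensity trend with robust variance, the mean of a gene's probe sets, array weights, rows on their own, the replicate block, the male share as covariate, a threshold of 0.1 and leaving out each array.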

Additional observations from a re-analysis of the deposited data

How the results depend on the processing

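17 alternatives were run, and P4ha3, Col11a1 and Col18a1 kept their call in each that could be run for them except the one with the male share. Of the 37 named members that did not pass, 30 passed in none. With all 6 arrays 6 chain genes, 1 enzyme gene, 26 other collagen pathway genes (the TGF-β list included) and 3496 genes in all passed. With the male share as covariate these counts were 0, 0, 0 and 83. At a threshold of 0.1, 10 chain genes and 2 enzyme genes passed, the second enzyme being Lox. Lox also made the enzyme count 2 with median centring and with the lowest 50% of genes left out. Median centring left 17 pathway genes. The replicate block left 2008 genes in all, 13 pathway genes and 5 members, with the calls of Col5a2 (0.34, adjusted p = 0.0585) and Col25a1 (0.22, adjusted p = 0.0962) lost. Leaving out each array in turn gave 2 to 6 chain genes (the 6 including Col6a4, lower, without Klf5-deleted replicate 3), 1 to 2 enzyme genes, 10 to 24 pathway genes and 2000 to 2757 genes in all. The lowest chain count came without control replicate 3, and the lowest pathway and overall counts came without control replicate 2.

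Signs changed only for named members that passed in none of the fits run. With the male share these were Col14a1 (0.03), Col15a1 (0.09), Col6a5 (0.22), Col6a6 (0.40), Loxl4 (0.25), Plod2 (−0.26) and Plod3 (0.18). Col4a5 was at −0.01 with quantile normalization and with median centring, and Col6a5 was at 0.00 with the mean of all probe sets. On leaving out an array, Col15a1 ran from −0.11 to 0.07, Col4a3 from −0.01 to 0.16, Col4a5 from −0.04 to 0.06, Col5a3 from −0.02 to 0.15, Col6a3 from −0.08 to 0.01, Col6a6 from −0.09 to 0.04 and Plod2 from −0.01 to 0.12. The cause of these changes was not tested. Signals near the background level limit the folds of dim genes.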

Other observations

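Neither the 54 members nor all genes were spread evenly over the arrays. Klf5-deleted replicate 1 was the highest of the 6 arrays for 14 members and the lowest for 14, where it was highest for 17.8% and lowest for 22.0% of all genes. It was highest for P4ha3, Col12a1, Col18a1, Col5a2, Col8a1 and Loxl1 and lowest for Lox and Col6a4, genes chosen after their values were seen. The same array had the lowest sum of epithelial markers (19145, against 21962 and 22352 in the other Klf5-deleted arrays) and the highest sum of mesothelial markers (17924, against 15263 and 15209). It also had the highest fibroblast (41951), endothelial (19399) and pericyte (9182) sums of the 6 arrays, and the lowest cartilage sum (2905). Its smooth muscle (48756), neural crest (11337) and leukocyte (3252) sums lay within the range of the other arrays. The part of these cell types was not tested. Control replicate 1 was highest for 15 members and for 17.4% of all genes, and control replicate 2 was lowest for 18 members. Control replicate 2 was also lowest for 25.6% of all genes.

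Genes that lie side by side on a chromosome could be compared in 8 pairs of members. In 7 pairs neither gene passed, and in the pair Col3a1 and Col5a2 one did. The absolute difference in log2 fold change within a pair ran from 0.01 (Col4a1 and Col4a2) to 0.31 (Col6a5 and Col6a4).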
